A study of Rattus norvegicus with 6 samples.

Results

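The insulin and insulin-like growth factor (IGF) genes described here are 10 of the 35291 genes in a table of testis RNA-Seq values. They were picked by symbol, as a set named for its roles, and each symbol matched 1 gene. They are the ligands Igf1 and Igf2, the receptors Insr, Igf1r and Igf2r, the docking proteins Irs1 and Irs2, and the adaptors Shc1, Grb10 and Grb14. RNA was sequenced in 3 testis samples from diabetic (DM) and 3 from non-diabetic (Nor) Sprague-Dawley rats, an outbred strain. Whether each sample is 1 animal is not stated in the sources used here. The DM rats were fed a high-fat diet for 1 month and then given a single injection of streptozotocin at 35 mg/kg, a toxin of the insulin-producing beta cells, and testes were taken 8 weeks later. The Nor rats received the buffer alone. The sources used here do not say clearly whether the Nor rats had the same diet, and they give no age or insulin level for the sequenced samples. The study describes the model as type 2 diabetes and defined it by sustained hyperglycaemia after the injection.

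Insulin binds the insulin receptor, and IGF1 and IGF2 signal mainly through the related IGF1 receptor. Both receptors are tyrosine kinases that dock IRS and SHC proteins, through which PI3K and AKT or RAS and the MAP kinases are switched on. GRB10 and GRB14 bind the active receptors and dampen them, and IGF2R removes IGF2 without passing on a growth signal. In the testis these signals are known for their part in Sertoli cell number, Leydig cell maturation and germ cell growth. Because streptozotocin is a toxin of beta cells, the pathway is a natural point to look at in these diabetic samples.

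Promoter letters were read from RefSeq (build GRCr8), which has the 250 bases before and 50 bases after each gene start. Of the 10 genes, 9 were matched, Igf2 with 2 entries, and Irs2 was not analysed here for promoter letters. The windows of these genes were mostly rich in G and C, from 48.3% for Igf1 to 79.7% for Grb10, against a median of 51.7% over 33469 promoters. The letters GGGCGG, the core of a GC box, were searched on both strands and stood in the promoters of 7 of the 9 genes, both Igf2 entries included, against 33.1% of all promoters. Igf1 and Insr had none. The letters GTAAACA, the core to which FOXO factors bind, were also searched on both strands. They stood in 1 promoter of the 9, that of Insr, against 3.78% of all promoters. FOXO factors are held in check by insulin signalling. The FOXO window of Insr and a GC box window of Irs1 are shown because these were the receptor and the docking protein whose DM and Nor values did not overlap. The windows are written along the gene, and capitals mark the match, on the reverse strand for Insr. They lie at chr12:6128886-6128915 (minus strand) for Insr and chr9:91053997-91054026 (minus strand) for Irs1.
Insr: gacgggccgcgtTGTTTACtggccggagtc
Irs1: ggacgcgtcctcGGGCGGcagcagcagcag
These matches describe letters only, and no binding was measured. TATAAA was found in 0 of the 9 promoters, against 14.2% of all promoters.

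Abundance is given in FPKM, fragment counts scaled for transcript length and library size, so that levels of different genes can be set side by side. In the order of their means over the 6 samples the genes ran from Grb10 at 12.5 FPKM through Grb14 at 5.78, Igf2r at 4.98, Igf1 at 4.26, Igf1r at 3.85, Shc1 at 3.53, Insr at 1.68, Igf2 at 1.14 and Irs2 at 0.868 to Irs1 at 0.443 FPKM. Of the 9 pairs of neighbours in this order, 3 had ranges over the 6 samples that did not overlap: Grb10 lay above Grb14, Shc1 above Insr, and Irs2 above Irs1. The ranges of the other 6 pairs overlapped, although Insr was above Igf2 within each sample. Irs1 was the only one with a mean below 0.5 FPKM, the limit for testing, so 9 of the 10 genes were tested among 20338 genes. Grb10 was more abundant than 71.0% of the genes tested, and Irs2 was more abundant than 10.6% of them.

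**Figure D1:**
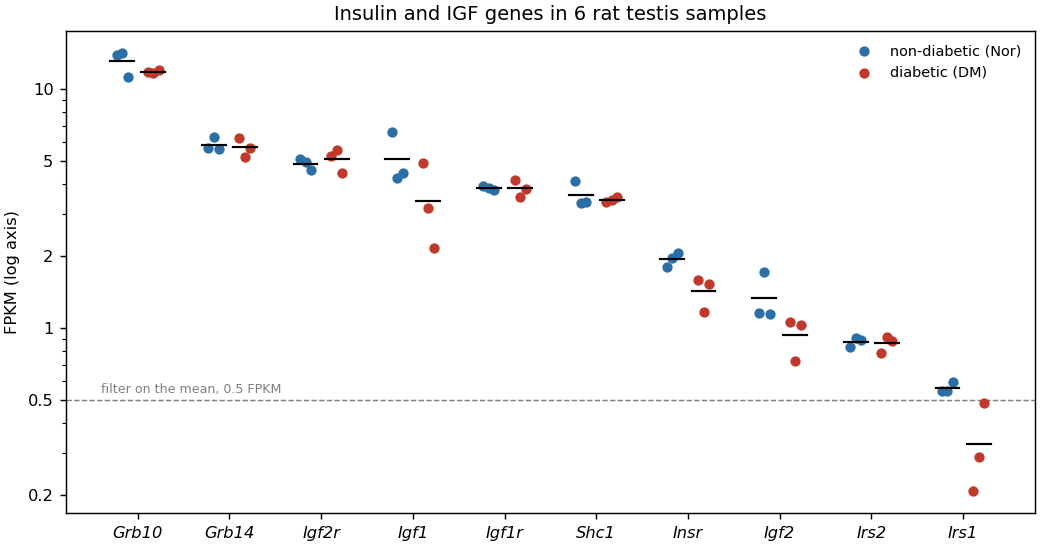
FPKM (log axis) of the 10 genes in 3 non-diabetic (blue) and 3 diabetic (red) samples, ordered by their mean level. Points are single samples, and bars are group means. The red points lie wholly below the blue points for Insr, Igf2 and Irs1, and the dashed line marks the filter of 0.5 FPKM, below which the mean of Irs1 lies.

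The comparison of DM and Nor used limma and log2(FPKM + 0.1) values of all genes tested. The fold changes below are on this scale, and the added 0.1 FPKM makes those of weakly expressed genes smaller than they are. None of the 9 genes had a Benjamini-Hochberg adjusted p-value below 0.05 in limma. That call was reached by 7 of all genes tested, or 0.0344%. The unadjusted p-value was below 0.05 for 1 of the 9 genes, Insr, against 7.46% of all genes tested, or 4.99% with DM below Nor. The study screened differential transcripts with DESeq2. Its criterion asks for a log2 difference of 1 or more in size and an unadjusted p-value below 0.05. Applied here to the limma values, that criterion was met by 0 of the 9 genes and by 1.24% of all genes. The groups did not overlap, with DM below Nor, for 2 of the 9 genes, against 8.42% of all genes tested. They did not overlap with DM above Nor for 0 of the 9 genes, against 4.56% of all genes tested. The median log2 fold change was -0.063 over the 9 genes and -0.021 over all genes tested. The mean log2 value was lower in DM for 8 of the 9 genes (55.6% of all genes), or for 6 of 9 after median-ratio scaling of the samples.

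**Figure D2:**
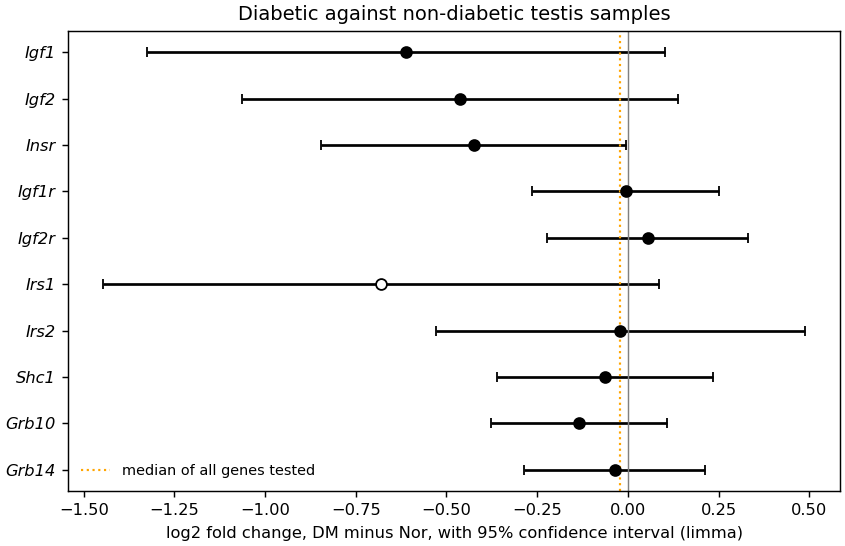
Log2 fold change (DM minus Nor) of each gene with its 95% confidence interval from limma. Filled points are from the fit with the filter on low values, the open point of Irs1 is from the fit without it, and the dotted line is the median of all genes tested, -0.021. The points of Igf1, Igf2, Insr and Irs1 lie furthest below 0. Only the interval of Insr ends below 0, at -0.0038, and all the others include 0.

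Igf1 encodes the ligand that mediates much of the action of growth hormone and is also made locally in the testis. It was at 4.90, 3.18 and 2.16 FPKM in the DM samples and at 6.60, 4.23 and 4.46 FPKM in the Nor samples. DM replicate 1 lay within the Nor range and the other 2 DM samples lay below it, so the groups overlapped. The means were 3.41 ± 1.39 FPKM in DM and 5.10 ± 1.30 FPKM in Nor (SD, n = 3 each). On the log2 scale DM differed from Nor by -0.61, with a 95% interval from -1.33 to 0.10 (adjusted p = 0.735 from limma, exact permutation test p = 0.3). With 1 sample left out the value ran from -0.33, without DM replicate 3, to -0.91, without DM replicate 1. Its coefficient of variation was 40.7% in DM and 25.6% in Nor, against 7.94% and 1.96% for its receptor Igf1r, so samples of the same group were less alike in Igf1.

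Igf2, the fetal growth factor that is expressed from the paternal allele in most rodent tissues, was lower in abundance. It was at 1.06, 0.724 and 1.03 FPKM in the DM samples and at 1.16, 1.71 and 1.14 FPKM in the Nor samples. All 3 DM values lay below all 3 Nor values, though the highest DM and the lowest Nor value were close. DM minus Nor was -0.46 on the log2 scale, with an interval from -1.06 to 0.14 (adjusted p = 0.768 from limma). The exact permutation test gave p = 0.1, the smallest that 3 samples against 3 allow. Without DM replicate 2 the difference was -0.31, and without Nor replicate 2 it was -0.28.

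Insr encodes the insulin receptor. It was at 1.59, 1.17 and 1.53 FPKM in the DM samples and at 1.80, 1.97 and 2.05 FPKM in the Nor samples. Every DM sample lay below every Nor sample, and DM replicate 2 was the lowest. The means were 1.43 ± 0.227 and 1.94 ± 0.130 FPKM (SD, n = 3 each). The DM level was 0.745 of the Nor level, with a 95% interval from 0.556 to 0.997, or -0.43 on the log2 scale (SE 0.18). The unadjusted p-value was 0.0484 and the adjusted p-value 0.666 in limma, and the exact permutation test gave p = 0.1. Without DM replicate 2 the log2 difference was -0.30 and the unadjusted p-value 0.143. The unadjusted p-value was also above 0.05 without DM replicate 3 (0.0620) and without Nor replicate 1, 2 or 3 (0.0650, 0.106 and 0.118), and in the median-ratio scaling, so the one unadjusted call among these genes rested on each of those 5 libraries.

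Igf1r, a receptor through which both IGF1 and IGF2 act, had the lowest coefficient of variation of the 3 receptors in both groups. It was at 4.16, 3.55 and 3.83 FPKM in the DM samples and at 3.93, 3.85 and 3.78 FPKM in the Nor samples. The DM values lay on both sides of the Nor values. The log2 difference was -0.0064, and the interval from -0.26 to 0.25 corresponds to 0.833 to 1.19 of the Nor level (adjusted p = 0.996 from limma). A change of Igf1r as large as the point estimate of Insr lay outside that interval.

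Igf2r, which carries IGF2 and mannose-6-phosphate-tagged enzymes to the lysosome, was the one gene with a higher mean in DM. It was at 5.27, 5.55 and 4.44 FPKM in the DM samples and at 5.11, 4.94 and 4.57 FPKM in the Nor samples, so the groups overlapped. The log2 difference was 0.055 with an interval from -0.22 to 0.33 (adjusted p = 0.957 from limma). It was -0.0096 without DM replicate 2.

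Irs1 and Irs2 encode the docking proteins that recruit PI3K to the active receptors. Irs1 was at 0.207, 0.288 and 0.485 FPKM in the DM samples and at 0.543, 0.542 and 0.594 FPKM in the Nor samples. The 3 Nor values were close together, while the DM values were all lower and spread widely, with coefficients of variation of 5.30% and 43.8%. In the fit of 30782 genes without a filter on low values, Irs1 differed by -0.68 on the log2 scale, with an interval from -1.45 to 0.085 (adjusted p = 0.762 from limma; exact permutation test p = 0.1). It was -0.47 without DM replicate 1 and -0.93 without DM replicate 3. With Irs1 included, 3 of the 10 genes had DM below Nor with no overlap, against 7.46% of the genes in that fit. At such levels few fragments stand behind each value, and their number is unknown.

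Irs2 was at 0.783, 0.920 and 0.883 FPKM in the DM samples and at 0.832, 0.903 and 0.888 FPKM in the Nor samples. The DM values enclosed the Nor values. The log2 difference was -0.020 with an interval from -0.53 to 0.49 (adjusted p = 0.995 from limma). All 6 values lay between 0.783 and 0.920 FPKM.

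Shc1 encodes the adaptor that links the receptors to GRB2 and RAS. It was at 3.36, 3.44 and 3.53 FPKM in the DM samples and at 4.15, 3.34 and 3.36 FPKM in the Nor samples. Nor replicate 1 stood above the other 5 samples, which lay close together. DM minus Nor was -0.063 on the log2 scale, with an interval from -0.36 to 0.23 (adjusted p = 0.951 from limma), and it was 0.036 without Nor replicate 1.

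Grb10 and Grb14 encode related adaptors that inhibit the insulin receptor, and Grb10, like Igf2 and Igf2r, is an imprinted gene. Grb10 was at 11.9, 11.7 and 12.0 FPKM in the DM samples and at 14.0, 14.2 and 11.2 FPKM in the Nor samples. The DM values were nearly identical, and they lay between Nor replicate 3 and the other Nor samples. DM minus Nor was -0.14 on the log2 scale, with an interval from -0.38 to 0.11 (adjusted p = 0.846 from limma). Without Nor replicate 3 it was -0.24 with an unadjusted p-value of 0.0182 and an adjusted p-value of 0.614 from limma. Grb14 was at 6.24, 5.23 and 5.67 FPKM in the DM samples and at 5.67, 6.28 and 5.61 FPKM in the Nor samples, with groups that overlapped. Grb14 differed by -0.036 on the log2 scale, with an interval from -0.29 to 0.21 (adjusted p = 0.970 from limma).

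Ratios within a sample depend little on how the libraries were scaled. The ratio of (FPKM + 0.1) was compared for 5 pairs of related genes on the log2 scale with an exact permutation test. Igf1r exceeded Insr in every sample by this ratio, 2.52, 2.88 and 2.41 times in the DM samples and 2.13, 1.91 and 1.80 times in the Nor samples. All DM ratios lay above all Nor ratios, with log2 means of 1.38 ± 0.13 and 0.96 ± 0.12 (SD, n = 3 each). The difference was 0.42 (exact permutation test p = 0.1, adjusted p = 0.25 over the 5 pairs). Irs2 exceeded Irs1 2.87, 2.63 and 1.68 times in the DM samples and 1.45, 1.56 and 1.42 times in the Nor samples. Here too the groups did not overlap, and the log2 difference was 0.66 (exact permutation test p = 0.1, adjusted p = 0.25). It was 0.23 with 1 FPKM in place of 0.1 FPKM added, and the corresponding value for Igf1r over Insr was 0.27. Igf1r and Irs2 themselves differed between the groups by only -0.0064 and -0.020 on the log2 scale. The differences in these ratios therefore restate the lower values of Insr and Irs1 and are not a separate result.

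The other 3 ratios overlapped between the groups. Igf2r over Igf2 had log2 means of 2.33 ± 0.40 in DM and 1.81 ± 0.30 in Nor (exact permutation test p = 0.2, n = 3 each). Igf1 over Igf2 differed by -0.15 (exact permutation test p = 0.7). Grb14 over Grb10 differed by 0.10 (exact permutation test p = 0.4), and Grb10 exceeded Grb14 in all 6 samples. No ratio can pass the test in this design, which cannot reach p-values below 0.1.

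**Figure D3:**
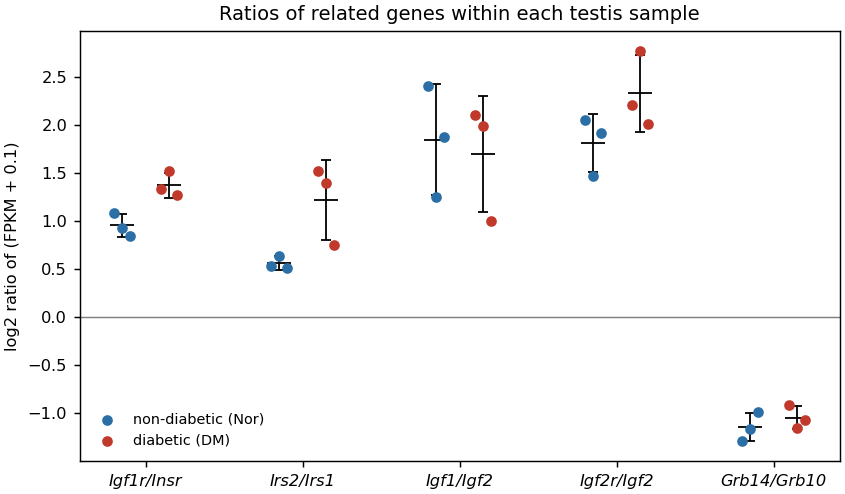
Log2 ratio of (FPKM + 0.1) for 5 pairs of related genes in each sample, non-diabetic in blue and diabetic in red, with the mean and SD of each group (n = 3). The DM points lie above the Nor points for Igf1r/Insr and Irs2/Irs1, and the points of the other pairs overlap.

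Around these genes, 85 other genes of the pathway were listed in 7 groups by role, and 64 of their entries passed the filter on low values. None of the 64 had an adjusted p-value below 0.05 in limma, and 1 met the criterion of the study (1.24% of all genes tested). At an unadjusted p-value below 0.05, 7 were lower in DM, against 4.99% of all genes tested, and 2 were higher, against 2.47%. The groups did not overlap for 12 with DM below Nor, against 8.42% of all genes tested, and for 4 with DM above Nor, against 4.56%.

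The IGF binding proteins, which hold IGFs in the circulation and in tissue, formed the list with the lowest median log2 difference, -0.57. All 7 tested members of that list of 13 had a lower mean log2 value in DM, also after median-ratio scaling (7 of 8 tested as TPM), and the groups did not overlap for 5 of them, against 8.42% of all genes tested. The unadjusted p-value was below 0.05 for 4 of them (4.99% of all genes with DM below Nor), Igfbp2, Igfbp5, Igfbp7 and the protease gene Htra1, of which Igfbp2, Igfbp7 and Htra1 were named after their values were seen. Igfbp5, which met the criterion of the study, was at 0.798, 0.363 and 0.998 FPKM in DM and 2.01, 2.56 and 1.63 FPKM in Nor. The log2 difference was -1.47 (unadjusted p = 0.00419, adjusted p = 0.419 from limma). Igfbp2 was at 6.81 ± 0.811 FPKM in DM and 10.1 ± 0.277 FPKM in Nor (SD, n = 3 each; log2 difference -0.57, adjusted p = 0.266 from limma). Igfbp7 stood at 12.9 ± 2.46 and 23.6 ± 4.73 FPKM (log2 difference -0.87, adjusted p = 0.331 from limma). Htra1, whose product can cleave IGF binding proteins, differed by -0.44 (adjusted p = 0.559 from limma). Below the filter, Igfals was higher in all DM samples (0.542, 0.642 and 0.502 FPKM) than in the Nor samples (0.260, 0.436 and 0.435 FPKM). Igfbp1, also below the filter, was at 0 FPKM in all DM samples and at 0.184, 0.0369 and 0.0408 FPKM in Nor. Both were named after their values were seen.

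Ghr, the growth hormone receptor gene upstream of Igf1, was at 0.669, 0.562 and 0.697 FPKM in DM and 1.12, 1.33 and 1.40 FPKM in Nor. All DM values were lower, with a log2 fold change of -0.89 (unadjusted p = 0.00493, adjusted p = 0.433 from limma). Stat5b, which passes the growth hormone signal to the nucleus, differed by -0.46 on the log2 scale (adjusted p = 0.672 from limma), and its groups did not overlap. The other 3 tested genes of that axis had overlapping groups.

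Downstream, Pik3r1 encodes a regulatory subunit of PI3K that docks on IRS proteins. It was at 1.76, 2.06 and 2.87 FPKM in DM and 3.38, 3.13 and 3.08 FPKM in Nor. The log2 difference was -0.53 (unadjusted p = 0.0264, adjusted p = 0.613 from limma). The other regulatory subunit genes listed, Pik3r2 and Pik3r3, were more abundant, with means of 7.99 and 33.8 FPKM over the 6 samples. They differed by 0.080 and 0.13 (adjusted p = 0.935 and 0.856 from limma) and were named after their values were seen. Pik3cb, a catalytic subunit, differed by 0.27 (adjusted p = 0.736 from limma). The median log2 difference over the 12 PI3K, AKT and FOXO genes was 0.034, with 5 lower and 7 higher in DM.

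Among the other receptors and docking proteins, 2 relatives of Shc1 were higher in all DM samples. Shc4 was at 11.2, 11.9 and 12.2 FPKM in DM and 9.77, 10.2 and 9.57 FPKM in Nor (log2 fold change 0.25, adjusted p = 0.517 from limma). Shc3 was at 2.95, 2.85 and 3.21 FPKM in DM and 2.04, 1.79 and 2.71 FPKM in Nor (log2 fold change 0.46, adjusted p = 0.643 from limma). The 10 tested genes of this list had a median log2 difference of -0.043, with 7 lower and 3 higher in DM, or 5 and 5 after median-ratio scaling. The insulin gene Ins2 was listed at 2.09, 2.70 and 0.882 FPKM in DM and at 2.473, 2.474 and 2.495 FPKM in Nor, and Ins1 was below the filter. Reads of these close copies may have been shared, so their values are uncertain.

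The adaptors towards RAS lay close to 0, with log2 fold changes from -0.10 (Crk, adjusted p = 0.859 from limma) to 0.043 over 9 tested values, and Sh2b3 at -0.067 (adjusted p = 0.919 from limma). Of the 13 tested inhibitors of receptor signalling, Nedd4, a ubiquitin ligase that binds GRB10, was at 40.3, 36.2 and 39.7 FPKM in DM and 44.1, 47.3 and 40.8 FPKM in Nor (log2 fold change -0.18, adjusted p = 0.665 from limma). Ptprf, a receptor phosphatase, differed by -0.20 (adjusted p = 0.754 from limma). The median of the inhibitors was 0.040, with 6 lower and 7 higher in DM.

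The imprinted growth genes and IGF2 mRNA binding proteins gave 8 tested values, 4 lower and 4 higher in DM. Dlk1, a paternally expressed growth regulator, differed by -0.93 on the log2 scale (adjusted p = 0.706 from limma), and its groups did not overlap. Igf2bp3, which binds Igf2 mRNA, was at 56.8, 60.8 and 62.5 FPKM in DM and at 63.9, 37.4 and 37.2 FPKM in Nor (log2 fold change 0.43, adjusted p = 0.712 from limma), with Nor replicate 1 above all 5 other samples.

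**Figure D4:**
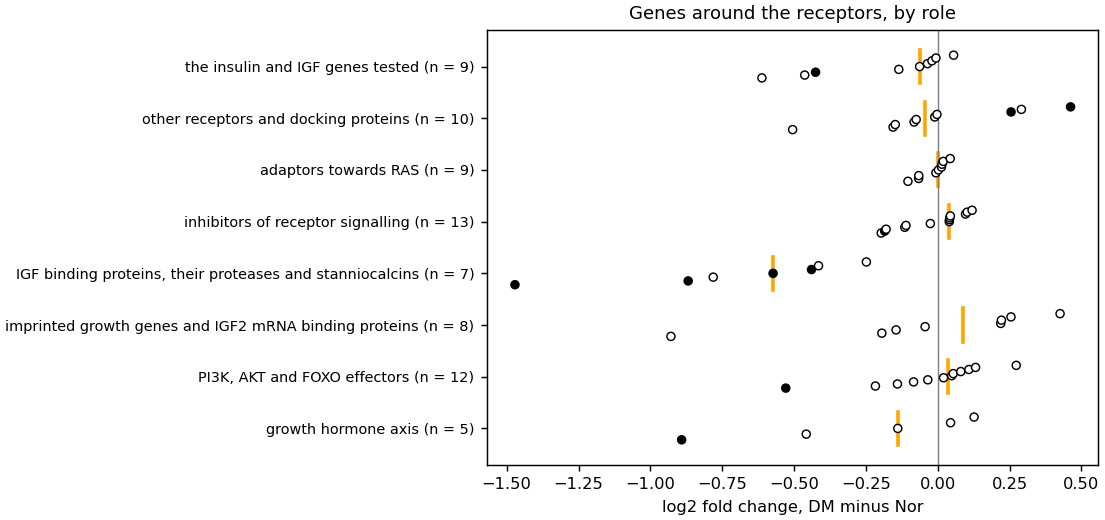
Log2 fold change (DM minus Nor) of each tested gene, by role. Each point is 1 gene, filled where its unadjusted limma p was below 0.05, and orange bars are list medians. The points of the IGF binding protein list all lie below 0, with a median of -0.57, while the other lists lie on both sides of 0.

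The testis is a mixture of cells, and in these bulk samples fewer cells of a type cannot be told apart from less RNA per cell. Markers of Leydig cells, the testosterone-producing cells, had a lower mean log2 value in DM for 7 of 7 tested genes. The share over all genes tested was 55.6%. All 7 markers had an unadjusted limma p-value below 0.05, against 4.99% of all genes tested with DM below Nor. The median of their log2 differences was -1.24. Their summed level was 47.0, 30.5 and 65.2 FPKM in DM and 114, 128 and 91.9 FPKM in Nor. Of the Leydig markers only Cyp17a1, the 17-alpha-hydroxylase, passed the adjusted test (adjusted p = 0.0415 from limma), and no marker passed it in 5 of 15 alternatives: no filter, the replicate block, and leaving out DM replicate 1, DM replicate 2 or Nor replicate 3. Macrophage markers had a lower mean log2 value in DM for 7 of 7 tested genes, against 55.6% of all genes tested. They summed to 27.4, 30.8 and 33.2 FPKM in DM and 35.5, 36.2 and 34.3 FPKM in Nor.

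Among the genes with separate groups, Insr and Igf2 had the same order of DM samples, lowest in replicate 2 and highest in replicate 1. Irs1 was lowest in DM replicate 1 and highest in DM replicate 3. The Leydig sum was lowest in DM replicate 2 and highest in DM replicate 3. Igf1, whose groups overlapped, was lowest in DM replicate 3. Of the 8 Leydig markers listed, 7 were found, and none of these was at 0 in DM. In bulk tissue that does not tell fewer cells from less RNA per cell. What part the makeup of the tissue has in the values of Insr, Igf1, Igf2, Irs1 and the IGF binding proteins was not tested.

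**Figure D5:**
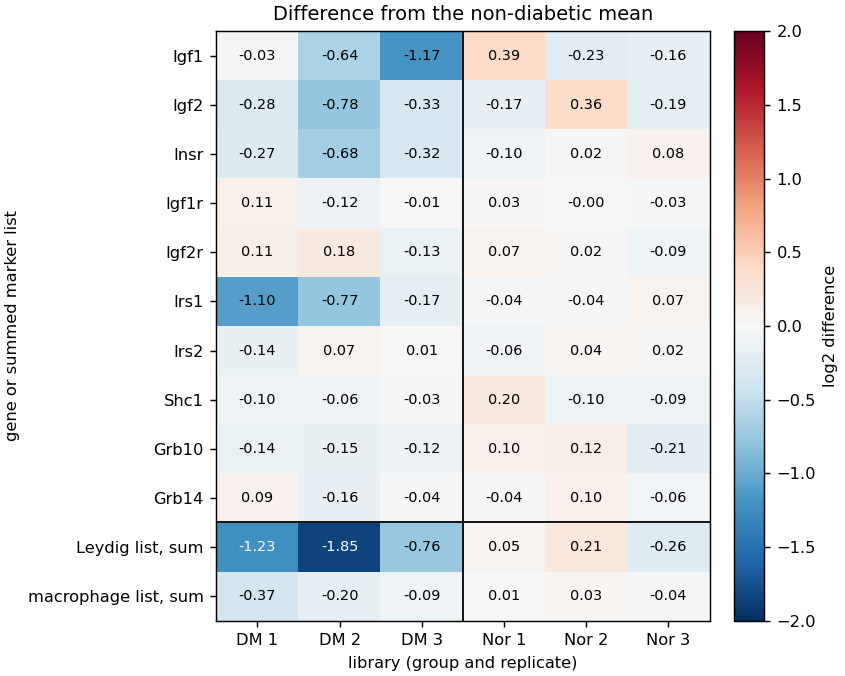
Log2 difference of each sample from the mean of the 3 non-diabetic samples, for the 10 genes (rows above the line, log2 of FPKM + 0.1) and the summed FPKM of the Leydig and macrophage marker lists (rows below the line). Blue is lower and red is higher. Igf1 reaches -1.17 in DM replicate 3 and Irs1 -1.10 in DM replicate 1, while the Leydig sum reaches -1.85 in DM replicate 2.

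By the shape of its 6 values, Insr was most like Coq6, Lamp3 and LOC690235 among 8903 genes with a symbol and a mean of at least 5 FPKM. Likeness was the root mean square difference between centred log2 values over the 6 samples, which was 0.050 for Coq6, 0.069 for Lamp3 and 0.078 for LOC690235. With so many genes and 6 samples, such closeness is a description only.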

How the data were processed

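The authors checked reads with FastQC, screened them against rRNA with BWA, used STAR for alignment and StringTie for transcript assembly. The build and versions are not given in the sources used here. The deposited values are FPKM per gene, as the authors calculated them, and counts were not used here. The extraction text of the labels mentions an adipose type. Spermatid markers summed to 7503 to 10179 FPKM and adipocyte markers to 6.28 to 11.1 FPKM per library.

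Values were transformed to log2(FPKM + 0.1), and genes averaging 0.5 FPKM or more were fitted with limma 3.58.1 (lmFit, eBayes with trend; R 4.3.3). Tests were two-sided, and p-values were adjusted by Benjamini-Hochberg over every gene tested. Exact permutation tests used scipy 1.17.1. The limma step was tested on simulated data. The depth in reads is unknown. Relative depth, read from ratios shared by many genes below 1 FPKM, was 0.966 to 1.09 in DM and 0.893 to 1.02 in Nor. No libraries were identical (correlation across genes 0.958 to 0.965 within groups and 0.957 to 0.966 between groups). Nothing says whether each sample is 1 animal, so p-values measure only the spread between these samples.

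The genes and lists were chosen with earlier results of these data known. Of the listed pathway genes, 82 of 85 symbols were found, and the rest were not analysed here. Named genes were all 10 members, and from each list those past the adjusted test or the criterion of the study, or otherwise the 2 with the lowest p-value, the marker genes past the adjusted test, and the 3 genes most like the member with the lowest p-value.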

Additional observations from a re-analysis of the deposited data

How the results depend on the processing

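The alternatives of the fit of Irs1 without the filter were chosen after seeing the data. In the 15 alternatives (pseudocounts of 0.01 and 1 FPKM, no filter, a filter at a mean of 1 FPKM, median-ratio scaling, TPM, a replicate block, an eBayes step with no trend, protein-coding genes only, and each sample left out) limma gave 0 of the genes tested (8 at a mean of 1 FPKM, 10 with TPM and with no filter, otherwise 9) an adjusted p-value below 0.05. The number with an unadjusted p-value below 0.05 was between 0 and 2, and it was 0 with no filter, with the filter at 1 FPKM and after median-ratio scaling. With 1 FPKM added, the log2 differences of Insr, Igf2 and Irs1 were -0.28, -0.27 and -0.24. Grb10 was at -0.088 without Nor replicate 1, -0.077 without Nor replicate 2 and -0.24 without Nor replicate 3. Of 143 fold changes under an alternative, 10 changed sign, all of them small. When single samples were omitted, log2 fold changes ran from -0.10 to 0.025 for Grb14, from -0.063 to 0.048 for Igf1r, from -0.0096 to 0.15 for Igf2r, from -0.064 to 0.040 for Irs2, and from -0.12 to 0.036 for Shc1. The turned values were those of Grb14 without DM replicate 2 or Nor replicate 2, Igf1r without DM replicate 2 or Nor replicate 1, Igf2r without DM replicate 2, Irs2 without DM replicate 1 or Nor replicate 2, and Shc1 without Nor replicate 1. Under median-ratio scaling Igf1r turned to 0.022 and Irs2 to 0.0061. The log2 difference of Igf1 over Igf2 ran from -0.45 to 0.20, turning to 0.20 without DM replicate 3 and 0.13 without Nor replicate 1. The cause was not tested. Median-ratio scaling moved the median of all genes by 0.029.

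The replicate numbers are shared by samples of different groups. Deviations from the group mean had correlations of 0.106, 0.0153 and 0.0979 between same-numbered samples of replicates 1, 2 and 3. Between differently numbered samples they ran from -0.126 to 0.0318, so the values of replicates 1 and 3 were the highest. Whether the samples were paired cannot be settled from these values. With a replicate block in the fit, 0 of the 9 genes tested had an adjusted p-value below 0.05 in limma. Under the block Igf1 had an unadjusted p-value of 0.0123 and an adjusted p-value of 0.510, and Insr an unadjusted p-value of 0.0793.

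The intervals of Igf1, Igf2 and Irs1 span both log2 differences beyond -1 and small positive ones, so 3 samples per group set no narrower limit for them.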

Other observations

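The remaining cell type markers gave these sums of FPKM. Sertoli markers summed to 62.8 to 66.3 in DM and 60.4 to 69.9 in Nor, peritubular and smooth muscle markers to 72.8 to 79.3 and 74.7 to 94.3, endothelial markers to 5.39 to 6.05 and 5.83 to 7.09, and spermatocyte markers to 849 to 873 and 849 to 897. Spermatid markers summed to 8009 to 9484 in DM and 7503 to 10179 in Nor, and red blood cell markers to 33.9 to 73.9 and 40.2 to 67.9. For these 6 lists the ranges of the groups overlapped. Spermatogonial markers summed to 57.4 to 68.7 in DM and 53.4 to 57.3 in Nor, and adipocyte markers to 6.28 to 8.40 and 8.72 to 11.1, with no overlap. The largest part of the spermatogonial sum was Uchl1 (named after its values were seen), at 47.5 FPKM in DM and 37.3 FPKM in Nor, whereas 4 of the 6 spermatogonial markers (Kit, Gfra1, Zbtb16 and Stra8) had a lower mean log2 value in DM and the median log2 difference was -0.17. No gene of these 8 lists had an adjusted p-value below 0.05 in limma. The tested entries numbered 3 each for endothelial, red blood cell and adipocyte markers. They numbered 5 for peritubular and smooth muscle markers and 6 for each of the other lists. At an unadjusted p-value below 0.05 in limma, 3 entries were lower in DM and 1 was higher. The shares over all genes tested were 4.99% and 2.47%. In the adipocyte list 1 gene met the criterion of the study, against 1.24% of all genes tested.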
